A study of Mus musculus with 24 samples.

Results

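The genes described here are 36 genes that mark the gastrulating mouse embryo: 15 of the epiblast and of pluripotency, 15 of the primitive streak and nascent mesoderm, and 6 of the endoderm, the node and the axial mesoderm. They were chosen by name, as the probe sets that name exactly 1 of the listed genes. All 36 had such a probe set, 1 each, among 19505 named genes measured on the arrays. T (brachyury) was not analysed here. Expression was profiled in 24 samples of outbred ICR-CD1 mice, 1 single-colour array per sample, in 6 groups of 4. The groups were samples labelled as embryos at embryonic day 7.5 (ED7.5) and embryonic day 14.5 (ED14.5), and neonatal liver at postnatal day 7.5 (PD7.5). At each age 1 group descended from control grandfathers and the other from obese grandfathers, which the labels call SL. The meaning of the letters SL, how the grandfathers became obese, any pooling of embryos and the litter of each sample were not stated in the sources used here, so p-values measure the spread between these samples, which may be technical in part.

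Gastrulation turns the epiblast, a single epithelium, into the germ layers. Epiblast cells carry transcription factors such as Pou5f1, Nanog, Sox2 and Otx2. At the posterior side Wnt3 and Nodal signals set up the primitive streak, where cells lose their epithelial character through factors such as Snai1 and move inwards as mesoderm and definitive endoderm. Cells that leave the front of the streak form the node and its derivatives, which secrete Chrd, Shh and other organisers of the body axis. At this stage the embryo is a small cup of cells inside a much larger mass of maternal decidua. Most of these genes are shut off as the tissues mature, and some, among them Foxa2, Sox17 and Axin2, are used again in other organs and vessels.

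Values are log2 probe set levels, so a difference of 1 is a doubling. As background of an array served the 75th percentile of the 5222 intron control probes on it, and a gene is called above background where it exceeded that level. Differences between groups were tested with limma over all 19505 genes with Benjamini-Hochberg adjustment, and a call is an adjusted p below 0.05. A level is compared only with other levels of the same probe set.

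The regions before the starts of 4 of these genes are shown because the genes behaved differently on the ED7.5 arrays: Axin2 and Sp5 are both known targets of Wnt signalling, yet the first was above background on all arrays and the second on none, and Pou5f1 and Utf1 were above background on only some. Each sequence holds the 250 bases before the annotated start on the plus strand of build GRCm38.p6, from RefSeq. Capitals mark the GC box GGGCGG and the TCF/LEF core CTTTGA.
Axin2 (chr11:108920099-108920348): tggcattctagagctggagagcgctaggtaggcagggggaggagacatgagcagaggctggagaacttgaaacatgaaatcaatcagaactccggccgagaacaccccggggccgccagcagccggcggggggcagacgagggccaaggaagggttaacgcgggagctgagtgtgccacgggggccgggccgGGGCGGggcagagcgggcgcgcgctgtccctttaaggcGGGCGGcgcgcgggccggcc
Sp5 (chr2:70474673-70474922): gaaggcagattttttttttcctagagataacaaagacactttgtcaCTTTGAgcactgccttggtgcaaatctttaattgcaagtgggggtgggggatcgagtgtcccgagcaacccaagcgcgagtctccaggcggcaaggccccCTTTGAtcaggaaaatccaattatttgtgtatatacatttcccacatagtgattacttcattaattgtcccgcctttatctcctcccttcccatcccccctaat
Pou5f1 (chr17:35505782-35506031): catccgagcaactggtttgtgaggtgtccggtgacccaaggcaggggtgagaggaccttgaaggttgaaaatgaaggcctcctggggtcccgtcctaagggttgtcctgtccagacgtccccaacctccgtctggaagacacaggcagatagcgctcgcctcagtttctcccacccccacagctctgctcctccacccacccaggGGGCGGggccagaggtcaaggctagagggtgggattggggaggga
Utf1 (chr7:139943606-139943855): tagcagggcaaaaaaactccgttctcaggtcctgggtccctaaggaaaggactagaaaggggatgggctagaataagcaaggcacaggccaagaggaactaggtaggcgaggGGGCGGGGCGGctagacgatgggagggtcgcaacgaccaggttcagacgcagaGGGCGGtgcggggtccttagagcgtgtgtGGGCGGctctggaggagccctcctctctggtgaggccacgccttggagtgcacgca
The Axin2 window held 2 GC boxes and no TCF/LEF core, and the Sp5 window held 2 TCF/LEF cores and no GC box. The Pou5f1 window shown had 1 GC box, and a second Pou5f1 entry, not shown, had none. Utf1 had 4 GC boxes, the first 2 of which overlap in the sequence. Searched on both strands, the TCF/LEF core stood in 5 of the 28 members that had an entry in the table and in 13.8% of all 32851 windows of that length. The GC box stood in 14 of 28 members against 32.7% of all windows, and the octamer ATGCAAAT, the site bound by Pou5f1, in 2 of 28 against 1.60%. The units differ, since a member with several windows counted where any 1 of them held the motif, and the 28 members had 35 windows. Median GC content was 59.4% for the members, with 1 window each, and 52.4% for all windows. A match describes letters only and shows no binding.

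The arrays of each age were checked against marker genes of the tissues. On the ED7.5 arrays all 12 markers of the decidua, which the mother forms at the implantation site, were above background on all 8 arrays, and their mean level per array ran from 11.40 to 11.57. Of the endothelial markers 9 of 10 were above background on all 8. The ED7.5 samples therefore held decidual and vascular transcripts beside those of the embryo. On the ED14.5 control arrays all 9 measured erythroid markers and 7 of 10 hepatocyte markers were above background on every array, while none of the 9 measured neural progenitor markers was, and Pax6, Sox3, Neurog2 and Msi1 were above background on none. The PD7.5 control arrays had all 10 hepatocyte markers above background. Alb, 1 of these markers, averaged 4.44 on the ED7.5, 13.51 on the ED14.5 and 13.80 on the PD7.5 control arrays. The ED14.5 samples thus held high levels of liver and red cell transcripts, and levels there need not stand for the whole embryo. In samples of this kind, fewer cells of a type and less RNA per cell cannot be told apart.

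The share of named genes above background ran from 49.0% to 64.1% over the ED7.5 arrays, from 48.3% to 53.7% at ED14.5 and from 52.2% to 58.4% at PD7.5. The second ED7.5 control array stood apart at the high end of background. Its intron controls set a background of 6.53, against 5.05 to 5.77 on the other 3 control arrays and 5.50 to 5.64 on the SL arrays, and its exon and intron controls were the least well separated of that age (area under the curve 0.867, where the others reached 0.921 to 0.957). The first ED14.5 control array had the highest background of its age, 6.51.

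Few of the gastrulation genes exceeded background at the age at which the embryo gastrulates. On all 8 ED7.5 arrays, 5 of 36 (13.9%) lay above background, where 48.8% of all named genes did: Sall4, Snai1, Axin2, Sox17 and Chrd. Another 11 exceeded it on some arrays, and 20 (55.6%) on none, against 34.7% of all named genes. By role, 1 of 15 epiblast genes, 2 of 15 streak genes and 2 of 6 endoderm and node genes were above on all 8 arrays. A count of this kind moves with the level taken as background. With the 50th percentile of the intron controls, 9 members were above on all 8 arrays, the added ones being Dnmt3b, Lin28a, L1td1 and Cyp26a1. With the 95th percentile only Axin2 and Chrd were.

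**Figure D1:**
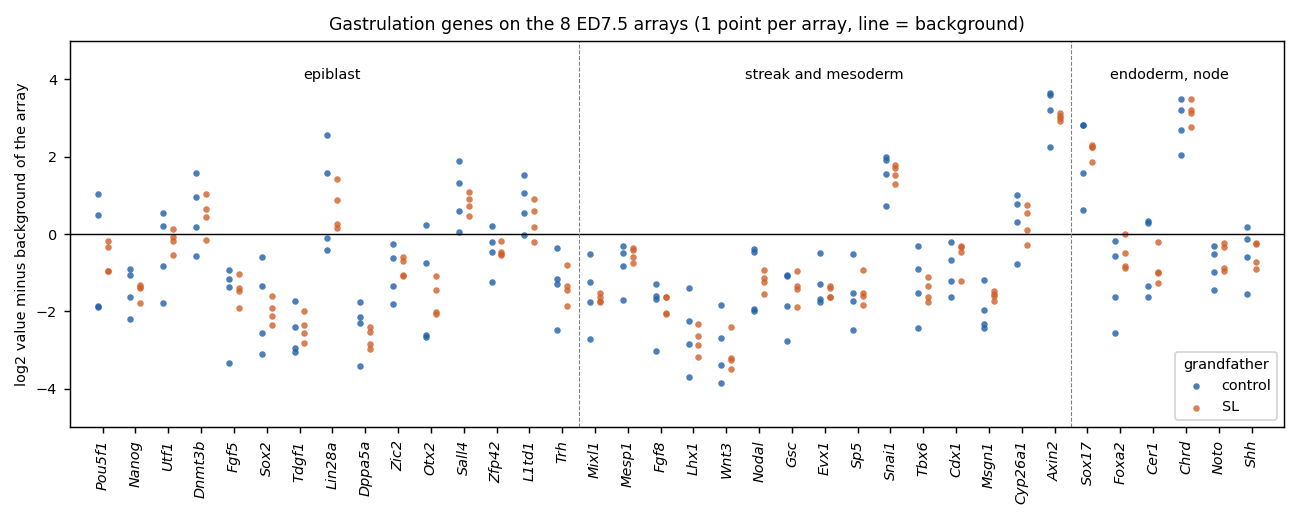
The vertical axis gives the log2 value of each gene minus the background of its array on the 8 ED7.5 arrays, and the horizontal axis lists the 36 genes by role. Each point is 1 array, blue for control and orange for SL grandfathers, and the line at 0 is background. Sall4, Snai1, Axin2, Sox17 and Chrd lie above the line on all 8 arrays, and 20 genes lie below it on all 8.

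Among the epiblast genes, Sall4 was the one above background throughout. Sall4, a zinc finger factor that sustains pluripotency, read 6.58, 6.58, 6.37 and 6.93 on the control arrays 1 to 4 and 6.69, 6.22, 6.54 and 6.12 on the SL arrays 1 to 4. The groups overlapped, and on control array 2 it cleared background only narrowly. Pou5f1 (Oct4), the central factor of the epiblast, read 5.75, 4.64, 3.90 and 6.09 on the control arrays and 4.65, 4.53, 5.45 and 5.31 on the SL arrays. It was above background on control arrays 1 and 4 alone. Utf1, a chromatin protein of pluripotent cells, read 5.47, 4.73, 4.93 and 5.59 and, in SL, 5.08, 5.32, 5.78 and 5.57. It exceeded background on control arrays 1 and 4 and on SL array 3.

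A further 3 epiblast genes were above background on 6 of the 8 arrays. Lin28a, an RNA-binding protein that blocks let-7 maturation, read 6.85, 6.11, 5.67 and 7.62 in control and 5.87, 6.38, 7.06 and 5.80 in SL, and fell short of background on control arrays 2 and 3. L1td1, an RNA-binding protein derived from a transposon and found in pluripotent cells, read 6.78, 6.50, 6.31 and 6.11 and 5.40, 6.39, 5.82 and 6.24. Dnmt3b, the methyltransferase that sets new DNA methylation at implantation, read 6.23, 5.97, 5.96 and 6.64 and 5.45, 5.93, 6.67 and 6.28. On control array 2 all 3 genes were below background, and the groups overlapped in each. Otx2, a factor of the anterior epiblast, read 4.52, 3.93, 3.10 and 5.29 and 4.17, 3.43, 4.54 and 3.63, above background on control array 4 only. Zfp42 (Rex1), a factor of naive pluripotency, was nearly level at 5.06, 5.30, 5.30 and 5.27 and 5.44, 4.96, 5.17 and 5.13, and it too was above background on control array 4 only. The other 7 epiblast genes, Nanog, Fgf5, Sox2, Tdgf1, Dppa5a, Zic2 and Trh, were below background on all 24 arrays of the study.

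Among the streak and mesoderm genes Axin2 and Snai1 were above background on all 8 arrays. Axin2, a negative feedback inhibitor that Wnt signalling induces, read 8.85, 8.79, 8.97 and 8.70 on the control arrays and 8.54, 8.49, 8.78 and 8.71 on the SL arrays. Its values changed little from array to array, and the groups overlapped. Snai1, the repressor of E-cadherin that drives the epithelial to mesenchymal transition, read 7.24, 7.26, 7.32 and 6.97 and 6.90, 7.02, 7.42 and 7.34, with overlapping groups as well. Cyp26a1, the enzyme that clears retinoic acid, read 6.03, 5.75, 6.08 and 6.06 and 5.33, 6.03, 6.38 and 5.74. It was above background on 6 arrays, all but control array 2 and SL array 1. Tbx6, a T-box factor of the presomitic mesoderm, was below background on all 8 ED7.5 arrays at 4.35, 4.11, 4.26 and 4.75 and 4.28, 3.74, 4.52 and 4.03. The other 11 of the 15 streak genes were below background on all 24 arrays: the ligands Wnt3, Nodal and Fgf8, the factors Mixl1, Mesp1, Lhx1, Gsc, Evx1, Msgn1 and Cdx1, and the Wnt target Sp5.

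Of the endoderm and node genes, Chrd and Sox17 were clear of background. Chrd, the Bmp antagonist secreted by the node, read 8.46, 8.57, 8.46 and 8.55 in control and 8.74, 9.00, 8.40 and 8.84 in SL. Its 4 control values lay within a narrow band that the SL values straddled. Sox17, a factor of definitive endoderm that endothelial cells also express, read 8.09, 7.16, 7.35 and 7.87 and 7.86, 7.74, 7.95 and 7.51. Control arrays 2 and 3 gave the lowest Sox17 values. Cer1, a secreted Nodal antagonist of the anterior visceral endoderm, read 5.54, 5.20, 4.15 and 5.39 and 4.35, 4.50, 5.45 and 4.65, above background on control arrays 1 and 4. Foxa2, the pioneer factor of endoderm and node, read 4.70, 3.96, 4.15 and 4.87 and 5.62, 4.68, 5.16 and 4.78, above background on SL array 1 only. Shh, the ligand of the notochord, read 5.12, 4.98, 5.17 and 5.22 and 5.38, 5.23, 4.74 and 4.91, above background on control array 4 only. Noto, the homeobox factor of the node, was below background on all 24 arrays. Over all members, 19 were below background on each of the 24 arrays, with levels from 1.81 to 5.78. As value minus background on the array where that was highest, Nodal, Cdx1, Noto and Zic2 came nearest, at -0.10, -0.14, -0.17 and -0.25, and Wnt3, Tdgf1, Lhx1 and Dppa5a stayed farthest, at -1.83, -1.66, -1.40 and -1.31.

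The number of members above background varied with the array within the control group. It was 12, 5, 8 and 15 on control arrays 1 to 4 and 7, 9, 10 and 9 on SL arrays 1 to 4. In the control group the background ran the other way, at 5.26, 6.53, 5.77 and 5.05 there and 5.61, 5.50, 5.64 and 5.64 on the SL arrays. The share of all named genes above background followed the order of the members in the control group, at 62.0%, 49.0%, 57.0% and 64.1%. The part of the backgrounds in this count was not tested. Without control array 4, 13 members in place of 16 were above background on at least 1 array, since Otx2, Zfp42 and Shh exceeded it there alone. The 5 members above on all arrays stayed 5 when any 1 array was left out.

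The levels themselves also varied between the control arrays, for some members by more than for most genes. The SD of Pou5f1 over the 4 control arrays was 1.01, larger than that of 99.8% of named genes. Genes at low levels scatter more, so each SD was also set against genes whose mean lay within 0.25 of that gene. Against 966 genes of like mean, the Pou5f1 SD was larger than 99.2%. Otx2 had an SD of 0.929, larger than 99.6% of its 1144 genes of like mean, and Lin28a of 0.854, larger than 98.6% of 941. Fgf5 (0.628, 96.1%), Cer1 (0.627, 94.1%), Sox2 (0.553, 92.9%), Wnt3 (0.498, 95.9%) and Sox17 (0.437, 95.2%) also exceeded 90% of their genes of like mean. Fgf5, Sox2 and Wnt3 were below background on all arrays. These 8 members were 5 of the 15 epiblast genes, 1 of the 15 streak genes and 2 of the 6 endoderm and node genes. Other epiblast genes varied little, among them Zfp42 at 0.115 (larger than 6.67% of genes of like mean), Zic2 at 0.157 (14.7%) and Nanog at 0.171 (18.0%), and Sall4 was ordinary at 0.232 (50.4%). In all, 22 of the 36 members had an SD above the median of their genes of like mean. In the SL group 26 did, and 5 exceeded 90%.

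Among the epiblast genes the high values fell most often on control array 4. It gave the highest level of the 8 arrays for 5 of the 15 epiblast genes, control array 1 and SL array 3 for 3 each, and control arrays 2 and 3 for none, where for all named genes these shares were 16.7%, 14.2%, 10.3%, 13.7% and 8.97%. Control array 4 was highest for 3 of the 15 streak genes, as was SL array 3, and for none of the 6 endoderm and node genes. Over all 36 members control array 4 was highest for 8, control array 1 for 7 and SL array 3 for 6. The mean level of the 15 epiblast genes was 4.99, 4.68, 4.57 and 5.16 on control arrays 1 to 4, and 4.60, 4.62, 4.93 and 4.82 on SL arrays 1 to 4. Control arrays 1 and 4 were thus high and 2 and 3 low. The median SD of all 36 members was 0.308 in the ED7.5 control group and 0.323 in the SL group, against 0.202 and 0.181 for all named genes. With background subtracted it rose to 0.802 in the control group, against 0.718 for all named genes, as the backgrounds of these arrays themselves differed.

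Of the 5 members above background on all arrays, 3 had an SD in the control group below the median of their genes of like mean. The SD of Chrd in the control group was 0.0598, smaller than that of most genes (larger than 5.29% of 1286 genes of like mean), that of Axin2 was 0.113 (29.5% of 1208) and that of Snai1 0.155 (33.9% of 1190). Sall4 lay near the median and Sox17 well above it, as given above. In the SL group the widest were Lin28a at 0.581 (97.8%) and Dnmt3b at 0.521 (95.2%), while Pou5f1 had 0.465 (84.0%). In that group Chrd was not narrow, with an SD of 0.256 (91.3%).

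**Figure D2:**
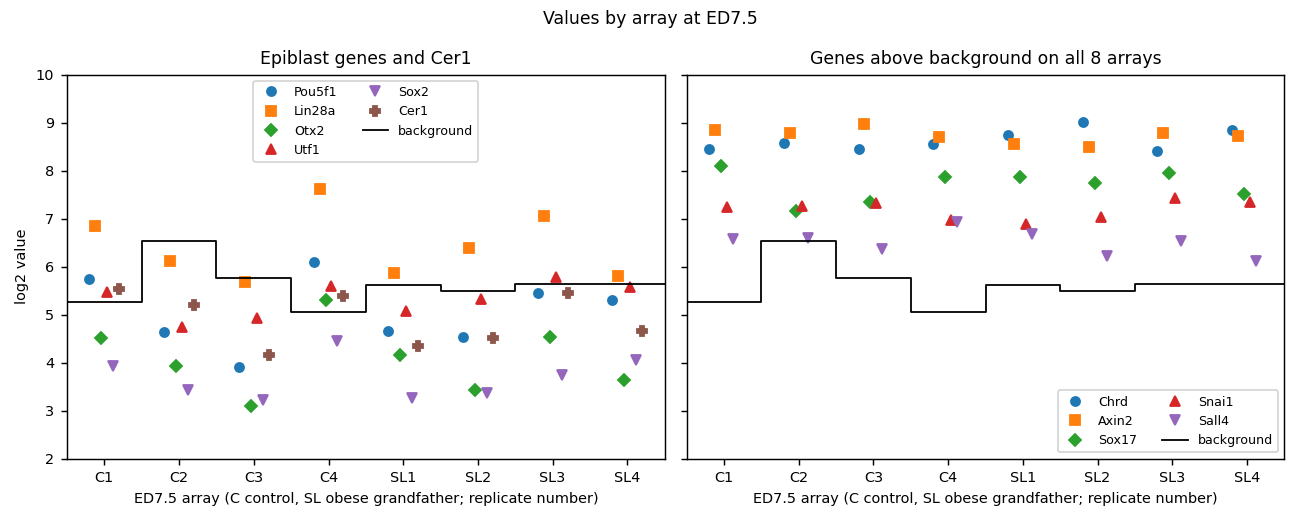
The vertical axis gives log2 values on each of the 8 ED7.5 arrays, control arrays C1 to C4 and SL arrays SL1 to SL4, with 1 symbol per gene and the background of each array as a stepped line. In the left panel Pou5f1, Lin28a, Otx2, Utf1 and Sox2 are high on C1 and C4 and low on C2 and C3. In the right panel Chrd, Axin2 and Snai1 stay nearly level over the control arrays.

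Markers of some other tissues moved with the same arrays, and those of others did not. The mean of the 12 visceral endoderm markers was 6.55, 5.99, 6.05 and 6.94 on control arrays 1 to 4 and 6.32, 6.48, 6.67 and 6.27 on the SL arrays. All 12 were above background on at least 1 ED7.5 control array, but only 3 on every one. On the SL arrays 9 were above it on every array, and Afp, Hnf4a and Apom on none. The mean of the 9 measured trophoblast markers was 5.73, 5.55, 5.88 and 6.41, and 5.31, 5.25, 6.20 and 5.62 in SL, with Ascl2, Elf5, Esx1 and Ctsq above background on none of the 8. Endothelial markers read 9.49, 9.22, 9.23 and 9.49 on the control arrays, with Stab2 above background on none, and ranged from 9.37 to 9.42 in SL. The decidual markers read 11.52, 11.42, 11.55 and 11.40 on the control arrays and 11.53 to 11.57 on the SL arrays. The epiblast, visceral endoderm and endothelial means were thus higher on control arrays 1 and 4 than on 2 and 3, as were the levels of Sox17, Foxa2 and Cer1. The hepatocyte marker mean had the same order, at 4.46, 4.28, 4.28 and 4.65, though 7 of its 10 genes were above background on no ED7.5 control array. The neural progenitor mean (5.79, 5.58, 5.53 and 5.73) and the cholangiocyte mean (7.42, 6.64, 7.14 and 7.44) had it too. The trophoblast, decidual, erythroid and germ cell means did not follow that order. Neither did Chrd, Noto and Shh, the other endoderm and node genes, and among the control arrays Chrd and Noto were highest on array 2. The part of these tissues, and of the array backgrounds, in the variation of the epiblast genes was not tested.

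**Figure D3:**
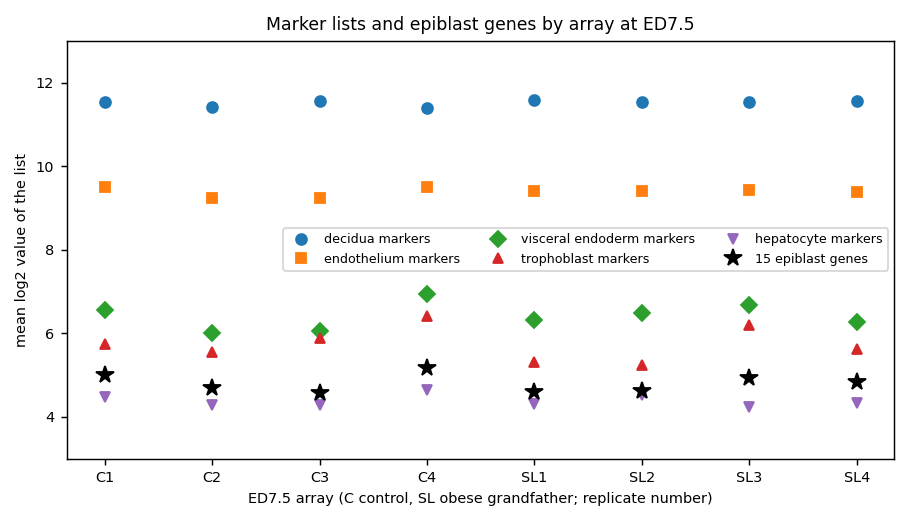
Mean log2 level of each marker list and of the 15 epiblast genes on the 8 ED7.5 arrays, 1 symbol per list and array. The decidual markers stay between 11.40 and 11.57, while the visceral endoderm markers range from 5.99 to 6.94 and the epiblast genes from 4.57 to 5.16.

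The ages were compared within each arm. From ED7.5 to ED14.5, 13 of the 36 members changed in the control arm, 5 higher and 8 lower, and 12 in the SL arm, 4 higher and 8 lower. Across all named genes 25.6% were called higher and 26.3% lower in the control arm, and 26.4% and 27.1% in the SL arm. The members' shares were 13.9% and 22.2% in control, and 11.1% and 22.2% in SL. The arms share no arrays, and the 12 members called in SL were called in the same direction in control (92.3% of the 13 control calls), where 85.5% of all control calls and 82.8% of all SL calls were shared. At PD7.5 against ED7.5, 3 members were higher and 9 lower in each arm (background 20.2% and 29.7% in control, 21.2% and 30.2% in SL), and 11 of the 12 were shared (91.7% of each arm's calls, against 83.6% of all control calls and 81.2% of all SL calls). Quantile normalization of the arrays compared gave 7 members in place of 4 higher at ED14.5 in SL, and without the third ED7.5 SL array 5 in place of 3 were higher at PD7.5. The tissue differed with the age in these comparisons, so age and tissue cannot be told apart.

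Each gene that fell in both arms from ED7.5 to ED14.5 had been above background on at least 1 ED7.5 array. Over the same ages the mean of the 12 decidual markers went from 11.40 to 11.57 on the ED7.5 arrays down to 5.32 to 5.55 at ED14.5 and 5.56 to 5.99 in the liver. Its part in the falls of the members was not tested. Chrd fell to 5.23, 5.10, 4.18 and 5.02 on the ED14.5 control arrays and 5.25, 5.30, 5.15 and 5.14 on the SL arrays, all below background. The control difference was -3.63 (SE 0.208, adjusted p = 1.7e-07, limma), a fall of at least 5.20-fold, and in SL the fall was at least 6.30-fold. In the liver Chrd read 5.63, 5.80, 6.07 and 5.49 and 5.32, 5.64, 5.74 and 5.86, above background on 1 of 8 arrays. A bound is computed against background where a group had all its arrays below it. Axin2 read 5.77, 6.46, 6.45 and 6.20 and 5.55, 5.70, 6.13 and 5.89 at ED14.5. It fell by 2.61 in control (SE 0.161, adjusted p = 2.8e-07), 6.09-fold, and was above background on 3 of the 4 control and 1 of the 4 SL arrays. In SL, where the ED14.5 level was below background on 3 of 4 arrays, the difference was -2.81 (adjusted p = 9.7e-08) and no fold is given. Axin2 was higher again in the liver, at 7.37, 7.25, 7.67 and 7.45 and 7.65, 7.51, 7.60 and 7.30, where all 8 arrays were above background. From ED14.5 to PD7.5 it rose 2.32-fold in control (adjusted p = 2.5e-04) and by 1.70 in log2 in SL (adjusted p = 9.8e-06).

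Sox17 read 5.67, 5.04, 5.11 and 5.46 and 4.90, 5.63, 5.46 and 5.10 at ED14.5 and 5.11, 5.84, 4.62 and 4.48 and 4.22, 5.18, 4.67 and 5.23 in the liver. All 16 values were below background. The fall from ED7.5 was -2.30 at ED14.5 in control (SE 0.225, adjusted p = 1.0e-05), at least 2.80-fold, and at least 3.19-fold in SL. Of the 10 endothelial markers, 8 were above background on every ED14.5 control array and all 10 on every PD7.5 control array. Their mean per array was 9.22 to 9.49 on the ED7.5 control arrays, 8.23 to 8.34 at ED14.5 and 8.83 to 9.20 at PD7.5. The part of the endothelium in the fall of Sox17 was not tested. Snai1 read 5.56, 5.62, 5.03 and 5.22 and 5.44, 4.82, 4.88 and 4.82 at ED14.5, and 3.71, 4.78, 5.60 and 4.75 and 5.94, 5.67, 5.62 and 5.21 in the liver, above background there on 1 SL array. It fell by at least 2.10-fold to ED14.5 in control (difference -1.84, SE 0.154, adjusted p = 2.9e-06) and by at least 2.11-fold in SL. Cyp26a1 read 3.63, 3.83, 3.57 and 2.52 and 3.22, 3.79, 4.28 and 3.93 at ED14.5, and 4.09, 3.98, 4.56 and 3.52 and 3.88, 2.82, 3.20 and 4.24 in the liver. Its differences from ED7.5 in control were -2.59 (adjusted p = 9.8e-06) and -1.94 (adjusted p = 1.4e-05), with no later array above background.

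Among the epiblast genes 4 fell as well. L1td1 read 3.87, 3.53, 4.51 and 3.74 and 4.83, 3.87, 3.78 and 4.32 at ED14.5, and 3.98, 3.79, 4.40 and 4.64 and 4.19, 4.03, 5.10 and 3.23 in the liver. The control difference at ED14.5 was -2.51 (SE 0.218, adjusted p = 3.9e-06), at least 1.23-fold, since its ED7.5 levels stood close to background. Pou5f1 read 3.32, 2.76, 2.90 and 3.37 and 3.18, 2.86, 3.42 and 2.99 at ED14.5, and 3.04, 3.18, 3.98 and 3.64 and 4.09, 3.14, 3.84 and 3.15 in the liver. The measured difference at ED14.5 was -2.01 (SE 0.421, adjusted p = 0.0023) in control and -1.87 (SE 0.225, adjusted p = 5.8e-05) in SL. All 16 later values were lower than 7 of the 8 values at ED7.5. Utf1 read 3.87, 3.62, 3.64 and 4.03 and 3.97, 4.02, 3.20 and 3.73, then 3.18, 4.18, 3.52 and 3.89 and 4.14, 3.14, 2.78 and 3.93, with differences at ED14.5 of -1.39 (adjusted p = 1.7e-04) and -1.71 (adjusted p = 6.7e-05). No fold is given for these last 2 genes, as their ED7.5 means were not above background by that measure. Lin28a read 5.22, 5.63, 6.13 and 5.82 and 5.36, 5.63, 5.91 and 5.67 at ED14.5, where it was not called, and 5.01, 5.20, 4.52 and 4.85 and 4.94, 5.42, 5.38 and 5.48 in the liver. There it fell by at least 1.58-fold from ED7.5 in control (adjusted p = 0.0028) and at least 1.20-fold in SL (adjusted p = 0.012).

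Sall4, Dnmt3b and Foxa2 were higher at a later age. Sall4 read 7.53, 7.48, 7.56 and 7.57 and 7.22, 7.68, 7.47 and 7.50 at ED14.5 and 6.11, 5.94, 6.73 and 6.73 and 6.15, 6.05, 5.61 and 6.85 in the liver. It was thus highest at ED14.5, 1.89-fold above ED7.5 in control (adjusted p = 1.4e-04) and 2.11-fold in SL (adjusted p = 2.0e-04), and fell 2.23-fold and 2.47-fold from there to PD7.5, where 3 of 4 control and 2 of 4 SL arrays were above background. Dnmt3b read 6.20, 6.43, 6.27 and 6.17 and 6.42, 6.58, 6.57 and 6.53 at ED14.5, and 6.98, 7.12, 7.23 and 7.10 and 6.24, 7.02, 6.82 and 7.21 in the liver. In the control arm it rose 1.88-fold from ED7.5 to PD7.5 (adjusted p = 9.1e-04), and in the SL arm no call was made. Foxa2, which directs liver differentiation as well as the node, read 7.49, 7.61, 7.57 and 7.69 and 6.58, 7.23, 7.41 and 7.58 at ED14.5, and 8.85, 8.60, 9.17 and 9.15 and 8.83, 8.41, 8.93 and 9.13 in the liver. It rose at least 3.84-fold from ED7.5 to ED14.5 in control (difference 3.17, SE 0.194, adjusted p = 2.7e-07) and at least 9.80-fold from ED7.5 to PD7.5 (adjusted p = 3.0e-08). All 16 later arrays were above background and above the 8 ED7.5 arrays. The hepatocyte marker mean was 4.28 to 4.65 on the ED7.5 control arrays, 9.39 to 9.58 at ED14.5 and 12.54 to 12.66 at PD7.5, and its part in the rise of Foxa2 was not tested.

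**Figure D4:**
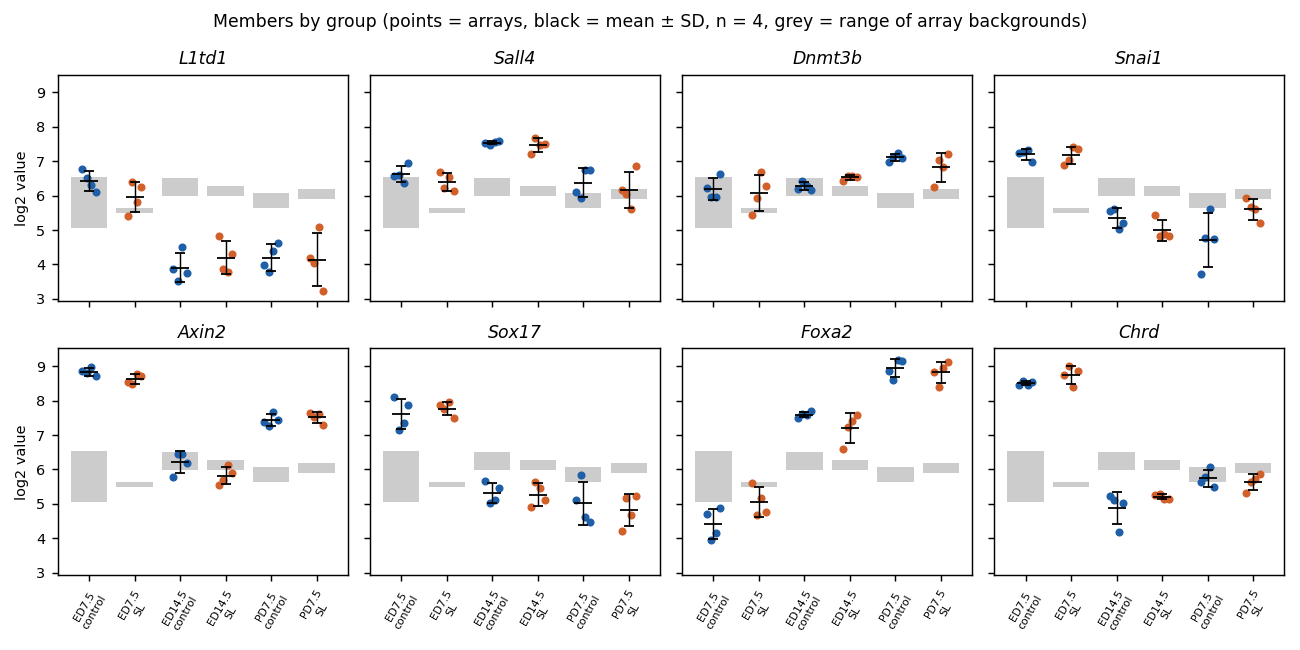
Log2 values of 8 members in the 6 groups, with blue points for control arrays, orange for SL arrays, black bars for the mean and SD (n = 4) and grey bands for the range of array backgrounds in the group. Sox17 and Chrd lie above the band at ED7.5 and below or within it at both later ages, except for 1 control liver value of Chrd just above its upper edge, Foxa2 lies below or at the band at ED7.5 and above it later, and Sall4 is highest at ED14.5.

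The remaining changes were in genes at or below background. Tbx6 read 6.04, 5.33, 5.44 and 6.27 and 5.65, 6.05, 5.85 and 5.48 at ED14.5, where 1 control array was above background, and 4.15, 3.88, 4.36 and 4.54 and 4.81, 4.58, 3.94 and 3.66 in the liver. It was called higher at ED14.5 than at ED7.5 (difference 1.40, adjusted p = 4.1e-04 in control, 1.62, adjusted p = 4.1e-05 in SL) and lower again at PD7.5. Nodal was called higher at both later ages in both arms, at 5.31, 5.26, 5.51 and 5.67 (ED14.5 control) against 4.88, 4.60, 3.79 and 4.60 (ED7.5 control), with no array above background. Msgn1, a factor of the presomitic mesoderm, was called at ED14.5 against ED7.5 in control only, at 4.20, 4.35, 4.17 and 4.42 against 3.29, 4.10, 3.46 and 3.86. Fgf5, a growth factor of the primed epiblast, was called lower at PD7.5 than at ED14.5 in control (4.04, 3.30, 3.37 and 3.07 against 4.48, 4.54, 4.27 and 4.46), and Dppa5a, a pluripotency marker, higher at PD7.5 than at ED7.5 in SL (2.98, 3.82, 4.64 and 4.32 against 3.08, 3.08, 2.80 and 2.67). No fold is given for these changes. Tbx6 was above background on only 1 of the 4 ED14.5 control arrays, and the levels of the others lay below background on both sides. Otx2, Zfp42, Cer1 and Shh were called in no age comparison. Their later levels were 3.55, 2.78, 3.60 and 3.77 for Otx2, 5.53, 5.45, 5.72 and 5.23 for Zfp42, 3.90, 4.56, 4.72 and 4.81 for Cer1 and 5.11, 5.21, 5.67 and 5.02 for Shh on the ED14.5 control arrays. In the control liver they read 3.35, 3.22, 3.62 and 3.21, 4.71, 4.87, 5.25 and 5.41, 5.00, 4.45, 4.87 and 4.50 and 5.51, 5.12, 5.40 and 4.84. Of these, no array was above background at either later age in control, and 1 SL liver array was for Shh. In the SL arm the same genes read 4.36, 4.12, 3.59 and 3.47, 5.97, 5.15, 4.87 and 5.06, 5.00, 4.33, 4.60 and 3.87 and 5.67, 5.12, 5.01 and 5.12 at ED14.5 and 4.11, 3.41, 3.97 and 3.68, 5.05, 4.94, 5.71 and 5.21, 5.01, 4.71, 5.28 and 4.89 and 6.49, 5.61, 5.12 and 5.34 in the liver.

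From ED14.5 to PD7.5, 4 members were called higher and 5 lower in control, and 4 higher and 2 lower in SL (background 20.5% and 24.6% in control, 21.4% and 24.4% in SL). Sall4, Tbx6, Axin2, Foxa2 and Chrd were called in both arms. Those are 55.6% of the control calls and 83.3% of the SL calls, where 82.0% and 80.9% of the calls over all named genes were shared. Beside the changes given above, Foxa2 rose 2.55-fold in control and 3.09-fold in SL. Chrd was called higher at PD7.5 in both arms, by 0.87 in control (adjusted p = 0.012, limma). Its levels at these ages were below background on every array but 1 of the control liver, and no fold is given. Lin28a, Fgf5, Msgn1 and Dnmt3b were called in control only, and Snai1 in SL only. The SL calls of Snai1 (adjusted p = 0.026) and Chrd (adjusted p = 0.028) and the control call of Msgn1 (adjusted p = 0.029) were each lost in several alternative fits, with adjusted p up to 0.073, 0.19 and 0.075. Without the first SL liver array 10 members in place of 6 were called in the SL arm, and without the third SL array of either age 2 in place of 4 were higher.

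The question the study's title sets, how expression in grandoffspring differs by the obesity of the grandfather, was then put to these genes. At no age was any of the 36 called between SL and control. Across all named genes the shares called were 0.00513% at ED7.5, 0.0513% at ED14.5 and 0% at PD7.5. An unadjusted p below 0.05 was reached by 1 member at ED7.5, 3 at ED14.5 and 2 in the liver, where 5.49%, 11.4% and 7.91% of all named genes reached it. No member had groups that did not overlap, against 3.05%, 7.98% and 4.43% of all named genes. The median difference over the 36 was -0.08, -0.03 and 0.09.

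The member at ED7.5 was Foxa2, higher in SL by 0.64 (SE 0.254, 95% interval 0.07 to 1.21, adjusted p = 0.86), with 1 of 8 values above background. At ED14.5 Dnmt3b differed by 0.26 (SE 0.095, adjusted p = 0.36), Zic2 by 0.54 (SE 0.180, adjusted p = 0.30) and Nodal by -0.37 (SE 0.157, adjusted p = 0.42), the last 2 from below background. In the liver Snai1 differed by 0.90 (SE 0.346, adjusted p = 0.62) and Otx2 by 0.44 (SE 0.179, adjusted p = 0.62). The control values of Snai1 there ran from 3.71 to 5.60 and the SL values from 5.21 to 5.94. The differences of the 5 members above background on all ED7.5 arrays were -0.23 for Sall4 (95% interval -0.59 to 0.14), -0.03 for Snai1 (-0.35 to 0.29), -0.20 for Axin2 (-0.44 to 0.05), 0.15 for Sox17 (-0.31 to 0.61) and 0.24 for Chrd (-0.06 to 0.54). Of the members that varied most between arrays, Pou5f1 differed by -0.11 (-1.11 to 0.89), Lin28a by -0.29 (-1.22 to 0.65) and Otx2 by -0.27 (-1.22 to 0.69). A fall of 1 in log2 lay within each of these 3 intervals, and a rise of 1 lay outside them. The median width of an interval to either side of the difference was 0.46 at ED7.5, 0.41 at ED14.5 and 0.53 in the liver.

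**Figure D5:**
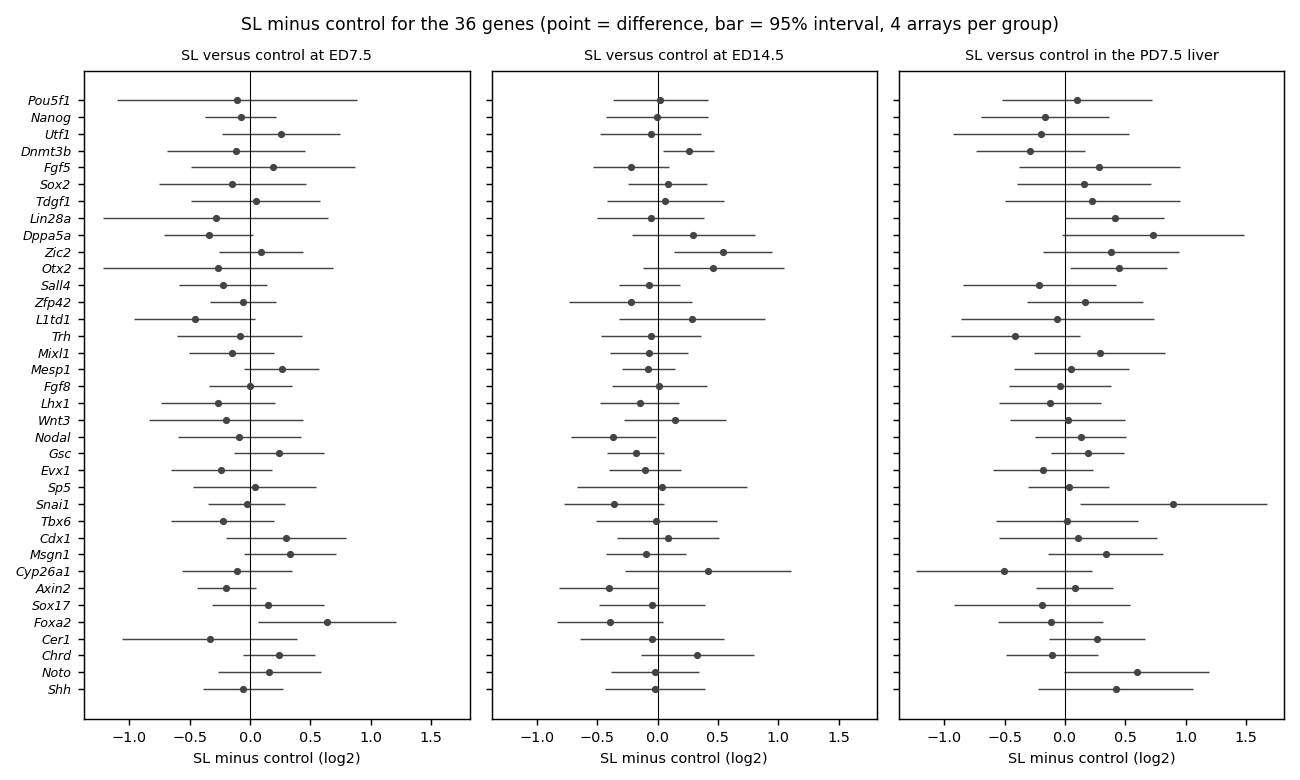
The horizontal axis gives SL minus control in log2 for the 36 genes, 1 panel per age, with the difference as a point and its 95% interval as a bar (4 arrays per group). The intervals of Pou5f1, Lin28a and Otx2 at ED7.5 are among the widest of that age, and no gene was called at any age.

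The difference of the SL effect between ages was tested as an interaction in a fit of all 24 arrays. No member was called in any of the 3 contrasts by limma, and an unadjusted p below 0.05 was reached by 2, 3 and 3 members. Of all 19505 named genes, 1349, 1793 and 2068 reached it in the same contrasts, and 15, 1 and 5 were called. The smallest adjusted p of a member was 0.40 between ED14.5 and ED7.5, 0.42 between PD7.5 and ED7.5, and 0.21 between PD7.5 and ED14.5. The first of these was Foxa2, whose SL minus control was 0.64 at ED7.5 and -0.39 at ED14.5. The last was Snai1, at -0.36 and 0.90.

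Related genes of the same pathways were described from 4 lists. No gene of any list was called between SL and control at any age by limma. Taking the ages in order, an unadjusted p below 0.05 was reached by 2, 3 and 0 of the other epiblast genes, 2, 1 and 3 of the Nodal and Bmp genes, 4, 2 and 0 of the Wnt and Fgf genes, and 0, 2 and 3 of the other streak genes. Over all named genes 5.49%, 11.4% and 7.91% reached it. Among 23 other epiblast and pluripotency genes, 7 were above background on all 8 ED7.5 arrays and 11 on none, and from ED7.5 to ED14.5 in control 6 were called higher and 8 lower. Among 22 genes of Nodal and Bmp signalling, 15 were above on all 8 and 3 on none, with 2 called higher and 12 lower. Among 22 genes of Wnt and Fgf signalling, 10 were above on all 8 and 4 on none, with 5 called higher and 7 lower. Among 26 other streak, mesoderm and node genes, 7 were above on all 8 and 6 on none, with 5 called higher and 11 lower. Of all named genes, 48.8% were above on all 8 and 34.7% on none, with 25.6% called higher and 26.3% lower. The median difference of the Nodal and Bmp genes was -0.63, against 0.03 for all named genes, in the comparison over which the decidual mean fell as given above, and the part of the decidua in it was not tested.

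Genes were named from these lists by their ED7.5 level, so their levels at the other ages are a description with no test. Klf5, a factor of pluripotent and epithelial cells, averaged 11.24 ± 0.18 (SD, n = 4) at ED7.5 and 6.82 ± 0.06 at ED14.5 in control. Bmp2, a Bmp ligand that is also on the decidua list, averaged 11.39 ± 0.20 and 6.00 ± 0.46. Kdr, the Vegf receptor of nascent mesoderm and endothelium, averaged 10.20 ± 0.20 and 9.21 ± 0.13. Lef1, a partner of beta-catenin, averaged 8.88 ± 0.10 and 4.90 ± 0.46, and Snai2, the relative of Snai1, 10.26 ± 0.09 and 7.52 ± 0.28. The ED14.5 means of these 5 were the lower ones. Cdh1 (E-cadherin) averaged 9.10 ± 0.20 and 10.21 ± 0.11. Fgfr1, the Fgf receptor of the epiblast, averaged 10.11 ± 0.22 and 5.86 ± 0.47. Id2, a Bmp target, Bmpr2, a Bmp receptor, Lrp6, a Wnt co-receptor, and Lfng, a modulator of Notch, were likewise above background on all 8 ED7.5 arrays. Of the 4 ED14.5 control arrays, Lef1 was above background on none, Fgfr1 on 1 and Bmp2 on 2.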

How the data were processed

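Expression was measured on 1 array per sample in 24 mouse samples, and each sample was assigned to 1 of 6 groups of 4 from its labels. The deposited values are log2 probe set levels that the authors made by RMA in oligo, per the submitters' processing notes. The versions, the array type and whether all arrays were normalized together were not stated in the sources used here, and the labels name no batch. Of 29129 probe sets, 19572 name 1 gene and none several. For the 55 genes with more than 1 the brightest was used, which left 19505 genes. Each of the 36 members has 1 probe set.

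Each comparison of 2 groups was fitted to its own 8 arrays with lmFit and eBayes in limma 3.58.1 (R 4.3.3), two-sided, with Benjamini-Hochberg adjustment over all 19505 genes and a threshold of 0.05. The SL effect was compared between ages in a fit of all 24 arrays. The script was tested on simulated data. Folds against a group below background are bounds against the higher of background and the gene's own level. Tables were handled in Python 3.11.15.

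The members and the lists of related and marker genes were chosen with earlier results of these data known, and the window of 0.25 for genes of like mean after the values were seen. Members above background on at least 1 array or called in a comparison were named with all values. From each related list the genes with the highest ED7.5 mean among those above background on all 8 arrays were named. The number of arrays limits the precision. Alternatives were a fit of all arrays, a replicate block, array weights, an intensity trend with a robust prior, a filter on dim genes, quantile normalization, the mean of several probe sets, other background percentiles and leaving out each array in turn. Sequences came from RefSeq tables, in which 28 of 36 members had a promoter entry.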

Additional observations from a re-analysis of the deposited data

Results flagged for a closer look

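Of 228 sets of 4 arrays tested, 10 (4.39%) had 1 array far from the other 3 by Dixon's criterion, where chance gives about 1 in 20. Of these, 8 were members, and each stray value was below the background of its array. At ED7.5 they were Zfp42 on control array 1 at 5.06, against 5.27 to 5.30 on the others, Cyp26a1 on control array 2 at 5.75, against 6.03 to 6.08, Noto on control array 2 at 5.08, against 4.74 to 4.79, and Cdx1 on SL array 2 at 4.29, against 5.18 to 5.34. At ED14.5 they were Mesp1 on SL array 4 at 5.16, against 4.87 to 4.92, and Snai1 on SL array 1 at 5.44, against 4.82 to 4.88. In the PD7.5 liver they were Fgf8 on control array 2 at 4.24, against 3.96 to 3.98, and Sox2 on SL array 1 at 4.01, against 2.96 to 3.07. The other two concern the first ED14.5 control array, whose background was 6.51, against 5.98 to 6.04, and whose exon and intron controls were separated with an area under the curve of 0.885, against 0.922 to 0.927.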

How the results depend on the processing

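No member was called between SL and control, or in the interaction between ages, under any alternative run. Of 1034 recomputed values for 70 single member results, 1012 kept their direction and their side of the threshold, 22 lost the call and 0 reversed. The losses were in Chrd, Snai1 and Msgn1 between ED14.5 and PD7.5 and in Dppa5a. The 70 did not cover every member in every comparison, so calls gained elsewhere show only in the counts of called members. Counts of called members moved most between ages. Without genes below background on every array of both groups, members higher from ED7.5 to ED14.5 numbered 3 in control and 2 in SL, and members lower from ED14.5 to PD7.5 numbered 3 and 1, since fewer members entered the fit. With quantile normalization 8 were lower from ED14.5 to PD7.5 in control, 7 higher from ED7.5 to ED14.5 in SL and 2 higher from ED14.5 to PD7.5 in SL. In a fit of all 24 arrays 5 were higher from ED7.5 to PD7.5 and 2 from ED14.5 to PD7.5 in SL. With the replicate number as a block 5 members in place of 3 were higher from ED7.5 to PD7.5 in SL, and no other count moved by over 1.5 times. Same-numbered arrays deviated together only weakly (r from -0.165 to 0.116, and in no comparison were all 4 pairs over 0.1), so the numbers were not taken to pair the samples; at most 3 of 4 pairs correlated best with their own number. The cause of these shifts was not tested. The 50th and 95th background percentiles gave 9 and 2 members above on all 8 ED7.5 arrays, and 30 and 7 on at least 1. The median SD in ED7.5 control was 0.802 with background subtracted.

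Leaving out 1 array at a time gave 0 to 0 calls in each SL comparison. From ED7.5 to ED14.5 it gave 13 to 18 calls in control (5 to 6 higher, 8 to 12 lower) and 12 to 14 in SL (4 to 5, 8 to 9). From ED7.5 to PD7.5 it gave 12 to 15 in control (3 to 3, 9 to 12) and 11 to 15 in SL (2 to 5, 9 to 11), with 5 higher without the third ED7.5 SL array. From ED14.5 to PD7.5 it gave 8 to 10 in control (4 to 5, 4 to 6) and 4 to 10 in SL (2 to 6, 2 to 4). The first PD7.5 SL array set the 10 calls and 4 lower, and the third SL array of either age the 2 higher. Members above background on all ED7.5 arrays stayed at 5 to 5, and on at least 1 array at 13 to 16. The median SD was 0.208 to 0.329 in ED7.5 control, 0.257 to 0.323 in ED7.5 SL, 0.164 to 0.263 in ED14.5 control (0.164 without the fourth array), 0.243 to 0.314 in ED14.5 SL, 0.269 to 0.310 in PD7.5 control and 0.306 to 0.437 in PD7.5 SL. With 19 members below background on all arrays, a change among them may go unmeasured.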
